A study of Mus musculus with 6 samples.

Results

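CpG-dense regions of the mouse autosomes that were methylated in every sample are described here. A region is a run of cytosines listed in the methylation table, with neighbours at most 100 bp apart. The members were chosen by 3 criteria on chromosomes 1 to 19: at least 10 cytosines, at least 10 summed reads in each sample, and a methylation level of at least 70% in all 6 samples. The level of a run is the percent of its reads that are methylated, summed over its cytosines. Of 9651 autosomal runs with the cytosines and the reads, 661 (6.85%) met the level criterion. The levels themselves chose the members, so the height of the levels is a description with no test. Differences between 2 days were tested over all regions, and are also given for dense runs chosen by the same rule on the remaining day alone, a choice that did not use the days compared.

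The samples are cells from the marrow of C57BL/6J mice, 2 libraries per stage, read by reduced representation bisulfite sequencing. Day 0 is uncultured marrow (replicates 2 and 3). Day 4 (replicates 1 and 2, labelled Common Myeloid Progenitor) and day 7 (replicates 1 and 4, labelled Bone-marrow Derived Dendritic Cell) were cultured with 20% supernatant of an SP2/0 line that secretes Flt3L, the cytokine that drives dendritic cell growth from marrow. All live cells were used on both days, with no sort for cell type, so a difference between days can be a change within cells or a change in which cells are present, and these cannot be told apart. All groups share the strain, the male label and the tissue. No treatment other than the culture separates them.

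In mammalian DNA a methyl group is placed mainly on cytosines followed by guanine, the CpG. Most isolated CpGs are methylated, while dense clusters of CpGs, the CpG islands, usually lie at gene starts and are free of methylation. Dense CpG sequence that is methylated in ordinary body cells is known from the starts of germline genes, which are silent outside germ cells, from imprinted genes on 1 parental copy, and from repeated DNA such as transposon remnants. A bisulfite library reads a methylated cytosine as C and an unmethylated one as T.

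No genome of the build used for mapping (mm9) was used, so members were matched to gene starts by the spacing of their cytosines. A match needed at least 8 listed cytosines on CpGs of a RefSeq promoter window (250 bases before to 50 after a gene start, GRCm38.p6), no listed cytosine off a CpG there, at least 50% of the CpGs of the shared stretch in the list, and the same chromosome. This gave 9 members with a gene start: Slc25a31, Gm13205, Stk31, 4933428G20Rik, Zglp1, Ddx4, Topaz1, Fkbp6 and Gm33197. In all 9 the order relative to neighbouring matched runs was the same in both builds. The 250 bases before the start are shown for 7 of them, because 6 belong to genes known from germ cells and the seventh to a member that differed between days. They are on the strand of the gene, from the RefSeq GRCm38.p6 table, with the CpGs read in the data in capitals.
Ddx4, chr13:112652311-112652560 (minus strand): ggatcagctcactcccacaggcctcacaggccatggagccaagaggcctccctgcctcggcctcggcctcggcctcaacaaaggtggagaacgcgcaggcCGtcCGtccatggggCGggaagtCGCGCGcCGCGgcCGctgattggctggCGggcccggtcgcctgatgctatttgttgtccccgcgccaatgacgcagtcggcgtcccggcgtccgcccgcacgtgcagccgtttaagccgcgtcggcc
Slc25a31, chr3:40708621-40708870 (plus strand): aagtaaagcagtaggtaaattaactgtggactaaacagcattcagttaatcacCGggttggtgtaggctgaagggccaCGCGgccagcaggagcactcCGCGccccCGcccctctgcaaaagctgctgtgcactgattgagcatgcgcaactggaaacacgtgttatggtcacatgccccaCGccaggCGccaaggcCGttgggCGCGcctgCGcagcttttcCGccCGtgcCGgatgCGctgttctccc
Stk31, chr6:49395289-49395538 (plus strand): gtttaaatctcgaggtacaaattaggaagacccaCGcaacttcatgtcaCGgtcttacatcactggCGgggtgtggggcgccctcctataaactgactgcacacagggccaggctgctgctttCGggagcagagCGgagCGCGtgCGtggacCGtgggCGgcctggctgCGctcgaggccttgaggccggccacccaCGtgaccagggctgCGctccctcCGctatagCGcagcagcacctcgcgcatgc
Zglp1, chr9:21067094-21067343 (minus strand): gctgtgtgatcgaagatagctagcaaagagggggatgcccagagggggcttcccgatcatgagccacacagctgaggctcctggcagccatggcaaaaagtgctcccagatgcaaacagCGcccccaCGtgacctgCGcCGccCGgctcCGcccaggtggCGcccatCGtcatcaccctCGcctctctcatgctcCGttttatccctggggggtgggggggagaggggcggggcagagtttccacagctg
Topaz1, chr9:122746949-122747198 (plus strand): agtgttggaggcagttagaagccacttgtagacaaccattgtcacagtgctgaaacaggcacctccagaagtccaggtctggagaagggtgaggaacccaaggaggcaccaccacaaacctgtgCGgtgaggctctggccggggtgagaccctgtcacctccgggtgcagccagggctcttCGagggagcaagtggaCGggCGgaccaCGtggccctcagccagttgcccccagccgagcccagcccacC
Fkbp6, chr5:135349914-135350163 (minus strand): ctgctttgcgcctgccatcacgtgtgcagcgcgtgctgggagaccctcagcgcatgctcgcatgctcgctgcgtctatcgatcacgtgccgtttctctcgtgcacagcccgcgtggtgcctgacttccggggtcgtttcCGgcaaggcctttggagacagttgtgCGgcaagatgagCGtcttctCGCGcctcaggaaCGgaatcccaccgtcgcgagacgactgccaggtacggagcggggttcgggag
Gm13205, chr4:148952323-148952572 (minus strand): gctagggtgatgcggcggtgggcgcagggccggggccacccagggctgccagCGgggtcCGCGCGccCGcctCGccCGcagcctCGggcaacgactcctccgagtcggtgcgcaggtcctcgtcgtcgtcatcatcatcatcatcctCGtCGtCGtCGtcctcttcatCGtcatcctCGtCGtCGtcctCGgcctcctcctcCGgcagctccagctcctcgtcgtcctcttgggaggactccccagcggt

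A second kind of member had the CpG spacing of repeated DNA. The 11 cytosines of a member on chromosome 1, from 194295202 to 194295429 (mm9), all fell on CpGs of the window before A230004M16Rik, a gene on another chromosome, chromosome 11. That window repeats itself after 208 bases, with 90 of the 92 bases that can be compared identical (97.8%). The first 208 bases are shown because the same spacing recurs in other members, with all CpGs in capitals.
Repeat unit, chr11:41710094-41710301 (GRCm38.p6, plus strand): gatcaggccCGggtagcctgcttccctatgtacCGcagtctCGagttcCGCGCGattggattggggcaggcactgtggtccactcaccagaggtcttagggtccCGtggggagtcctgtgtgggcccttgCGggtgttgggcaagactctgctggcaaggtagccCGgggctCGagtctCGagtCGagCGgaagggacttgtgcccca

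Before the values, the libraries need a word. Reads summed over listed cytosines ranged from 6736556 to 10242334 in 5 libraries and came to 3641141 in day 7 replicate 4. The median member held 126 to 194 reads in those 5 libraries and 53 in day 7 replicate 4. A sequencing read is counted at each cytosine it covers, so the reads of a run are fewer independent molecules than their sum. The labels name no molecular identifiers either, and intervals of counts would cover counting error only. Separate animals or cultures are not stated for the libraries of a day, so each p-value speaks only of how far these libraries vary, and that variation may be technical. All 6 samples carry the label male, yet reads per X cytosine over those per autosomal cytosine differed between libraries. As means with extreme counts capped at a high autosomal percentile, this ratio was 0.661 to 0.702 in the day 0 and day 4 libraries. At day 7 it was 1.01 and 1.06. The members lie on autosomes, and the part of this library difference in the day 7 values was not tested.

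The dense runs fell into an unmethylated majority and a methylated minority. Of the 9651, 8204 (85.0%) lay below 10% in all 6 samples, 661 were members, and 786 (8.14%) were neither. By the mean over samples 8483 dense runs lay below 10%, 438 at 80% to 90% and 218 at 90% or more. Each band of 10 points between 20% and 70% held 30 to 71. The 661 members carried 8173 cytosines over 162627 bp.

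**Figure D1:**
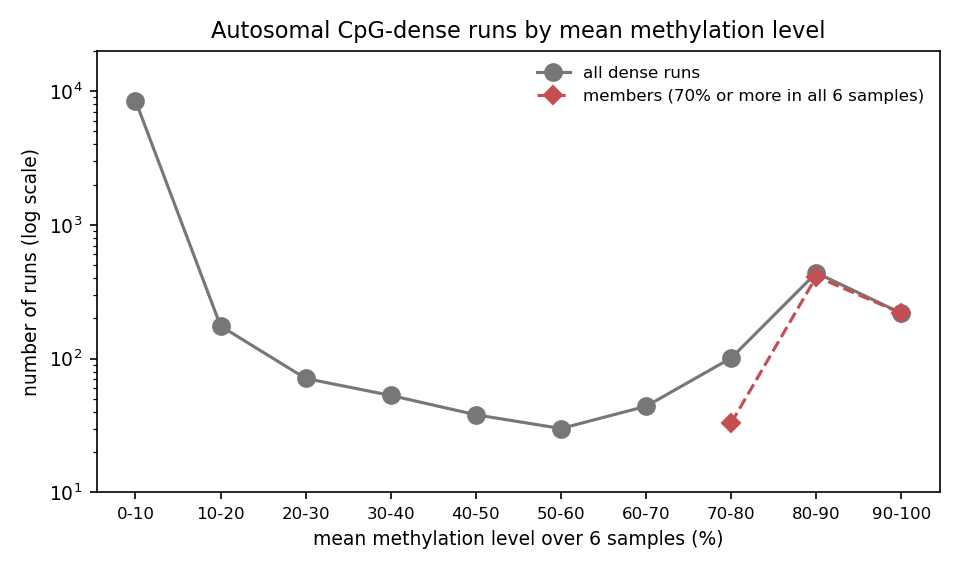
Number of autosomal dense runs (log axis) in each band of 10 points of mean methylation level over 6 samples, for all 9651 runs (grey) and for the members (red). The bands from 20% to 70% hold 30 to 71 runs each, below both the 8483 under 10% and the 438 at 80% to 90%.

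The members stood near 88% in each library. Mean levels over the 661 were 87.3% and 85.9% in day 0 replicates 2 and 3, 89.7% and 88.0% in day 4 replicates 1 and 2, and 89.1% and 88.4% in day 7 replicates 1 and 4. The group means were 86.6% ± 0.975, 88.9% ± 1.17 and 88.7% ± 0.471 (SD, n = 2 each) at days 0, 4 and 7. Both day 0 libraries lay below the 4 later ones. Single members spread by 5.25 to 6.29 points (SD over members) in the 5 deeper libraries and by 7.12 in day 7 replicate 4. Of the members, 33 were at 100% in day 7 replicate 4 and at most 2 in any other library, beside its lower depth. Averaged over the 6 libraries, 218 members were at 90% or more, 410 between 80% and 90%, and 33 below 80%.

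**Figure D2:**
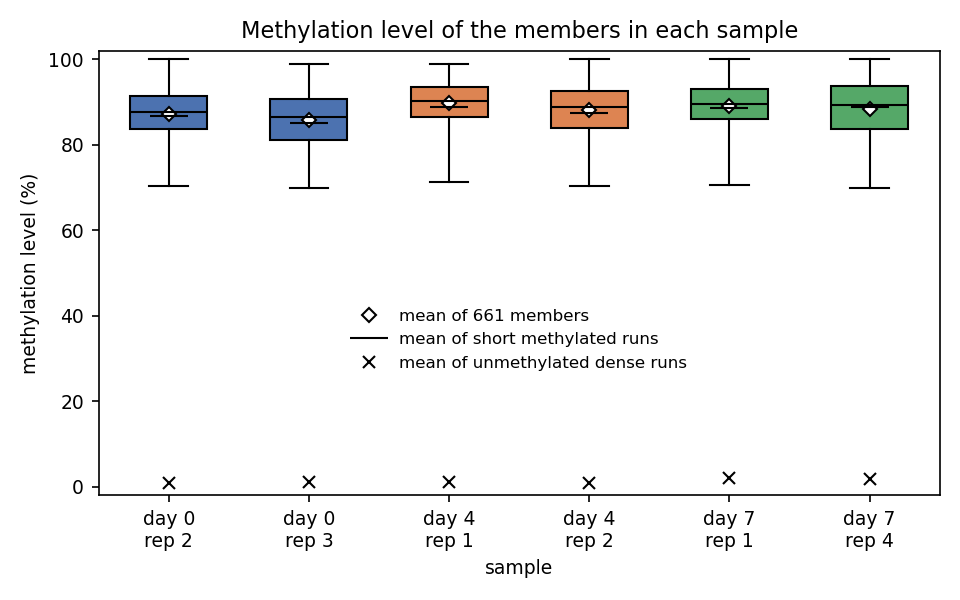
Methylation level (%) of the 661 members in each sample, coloured by day. Boxes span the quartiles with the median as a line and whiskers reach the lowest and highest member. Diamonds, dashes and crosses are the means of the members, of short methylated runs and of unmethylated dense runs. The member means lie between 85.9% and 89.7%.

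Methylated runs with fewer cytosines had much the same level. Runs of 3 to 9 cytosines chosen at the same 70% in all samples numbered 16835, and their means were 85.9% ± 1.17, 88.1% ± 0.989 and 88.8% ± 0.0724 (SD, n = 2 each) at days 0, 4 and 7. Unmethylated dense runs stood at 0.919% ± 0.151, 0.965% ± 0.104 and 1.98% ± 0.230. Each of these classes was chosen on its level as well.

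At the threshold the members passed into other runs without a gap. The 5 members just inside it, among runs with 50 reads or more in each sample, had lowest levels of 70% to 70.3%. The 5 runs just outside had lowest levels of 69.2% to 69.8%. An example inside is the run on chromosome 19 from 5751179 to 5751494 (16 cytosines), at 73.5%, 70.1%, 78.2%, 78.7%, 83.0% and 80.8% in the 6 libraries in the order used above. An example outside is the run on chromosome 7 from 125634186 to 125634323 (13 cytosines), at 79.6%, 85.7%, 86.8%, 88.9%, 82.6% and 69.8%.

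A library that played no part in the choice gave nearly the same members. When 5 libraries made the choice, 98.4% to 99.8% of the runs were also at 70% or more in the sixth, for each of the 5 deeper libraries left out. For day 7 replicate 4 the share was 93.8% (661 of 705), and its lowest such run stood at 38.2%.

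The germline genes matched by spacing were at high levels on every day, which the rule of the members fixes in advance. Genes matched to unmethylated or other dense runs were counted but not named. Germline genes with unmethylated starts would thus not be seen here, and the share of germline genes in those classes is not known. Ddx4, which encodes the germ cell RNA helicase known as vasa, had a complete match, with all 10 of its cytosines on the 10 CpGs of the stretch. Its run (mm9 chr13:113442617-113442667) had levels of 97.3% and 96.2% in the day 0 libraries, of 98.0% and 98.3% in those of day 4, and of 94.2% and 90.5% in those of day 7. The day 7 libraries were the lowest, and that of 90.5% had 21 reads. The difference between day 7 and day 4 was -5.85 points (adjusted p = 0.4366, edgeR).

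Slc25a31 encodes an ADP/ATP carrier of the mitochondrial membrane made mainly in the testis. Its run (mm9 chr3:40512596-40512859, 21 cytosines, 20 of the 22 CpGs of the stretch) stood at 95.9% and 93.1% (day 0), 93.6% and 96.0% (day 4), and 95.4% and 100% (day 7). The value of 100% rests on 24 reads, and the days overlap. Stk31, a kinase with a tudor domain made in germ cells, had its run at mm9 chr6:49345322-49345516 (15 cytosines). It stood at 96.8% and 95.2%, 96.1% and 94.4%, and 90.4% and 98.7%. The 2 day 7 libraries lie at opposite ends of this range.

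Zglp1, a zinc finger protein of the gonads, had a long run (mm9 chr9:20871255-20871667, 21 cytosines, 13 of them in the window). Its levels were 85.8% and 89.0% before culture, 89.4% and 89.9% on day 4, and 87.1% and 88.1% on day 7. The day 4 libraries were the highest, on average 2.26 points above day 0 (adjusted p = 0.9737, edgeR). Topaz1, needed for meiosis in the male germ line, had its run at mm9 chr9:122656191-122656356 (10 cytosines), at 85.7% and 86.7%, 90.2% and 83.0%, and 96.1% and 86.7%. Fkbp6, an immunophilin needed for meiosis, had its run at mm9 chr5:135825563-135825893 (16 cytosines, 9 of them in the window). They covered 9 of the 16 CpGs of the stretch, the lowest share of the 9 matches. The run stood at 85.1% and 81.2%, 92.7% and 82.2%, and 92.5% and 76.8%, so the replicates of days 4 and 7 differed by more than the days did.

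The other 3 matched starts belong to genes of less known function. The run of 4933428G20Rik (mm9 chr11:97361456-97361745, 25 cytosines, 13 in the window) stood at 98.6% and 90.1%, 97.5% and 96.2%, and 95.8% and 83.3%, the last on 36 reads. Gm33197, a long noncoding RNA gene, had its run at mm9 chr13:57347897-57348149 (11 cytosines, 8 in the window), at 81.7% and 76.0%, 88.8% and 87.5%, and 87.2% and 91.4%. Both day 0 libraries were the lowest there, with differences of +9.30 points at day 4 and +10.5 points at day 7 (adjusted p = 0.7927 and 0.5089, edgeR). Gm13205, also a long noncoding RNA gene, is described with the comparisons between days. In the 8 matched members other than Gm13205, no comparison between days passed an adjusted p of 0.05 (edgeR). At an unadjusted p below 0.05 there was 1, Ddx4 for day 7 against day 4, where 10.8% of all autosomal regions tested were at that p. For day 4 and day 7 against day 0 this autosomal share was 6.59% and 12.3%. At the adjusted p the autosomal shares were 0.00363% and 0.355% for these 2 comparisons, and 0.252% for day 7 against day 4.

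**Figure D3:**
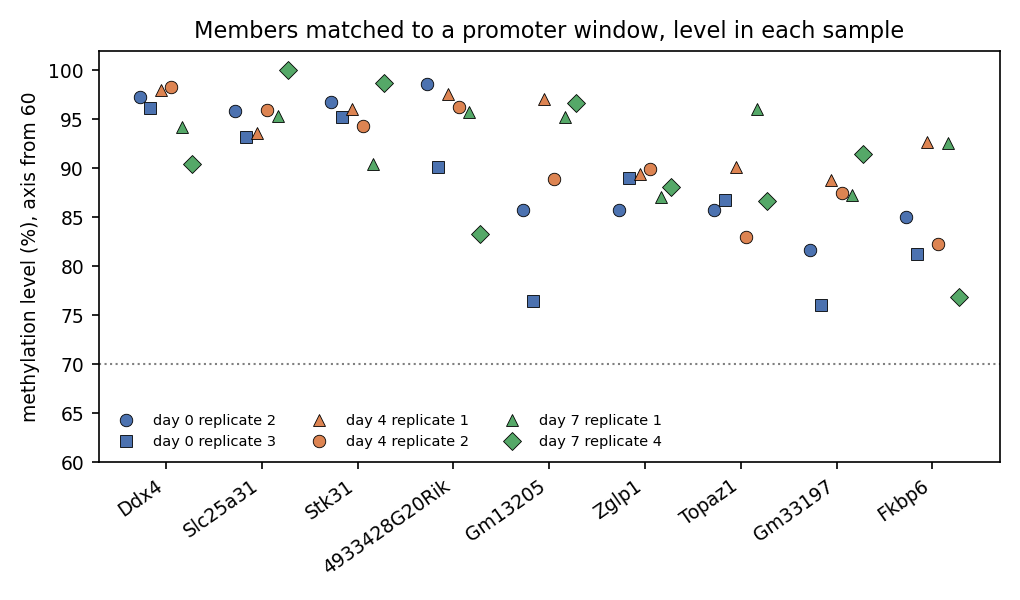
Methylation level (%) in each sample, from 60 upward, of the 9 members matched to a promoter window, ordered by mean level. Colours give the day, symbols the replicate, and the dotted line the 70% of the choice. Ddx4, Slc25a31 and Stk31 lie at 90.4% or more in every sample, and Gm13205 is at 76.4% in day 0 replicate 3.

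Few members lay at a gene start that could be matched. The same rule placed 1973 of the 8204 unmethylated dense runs (24.0%) and 60 of the 786 other dense runs (7.63%) at a promoter window, against 9 of the 661 members (1.36%). Of the candidate pairs before the demand for the same chromosome, 93.8% were on it for unmethylated runs and 10 of 21 (47.6%) for members. The match reaches only 300 bases per start and only runs with many cytosines inside them, so an unmatched member can still lie in or near a gene.

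The hexamer CACGTG, an E-box that reads the same on both strands, stood in 7 of the 9 matched windows: 4933428G20Rik, Ddx4, Fkbp6, Slc25a31, Stk31, Topaz1 and Zglp1. Of all 32851 RefSeq windows 7.15% held it, and of the 14281 windows with at least 10 CpGs 10.9%. It was searched because MAX and MGA, proteins of a complex known to keep germline genes silent, bind it. The CpG inside the hexamer was itself read in Stk31, Topaz1 and Zglp1. Pooled over the 6 libraries it was methylated in 29 of 36 reads (80.6%) in Stk31, 45 of 61 (73.8%) in Topaz1 and 47 of 65 (72.3%) in Zglp1. Each of these is below the lowest library level of the whole run, which was 90.4%, 83.0% and 85.8%. A whole run is not a single cytosine, though, and the lowest cytosine of the median member, pooled likewise, stood at 76.8%. In Zglp1 the site stood at 37.5% in day 0 replicate 3 (8 reads) and 42.9% in day 7 replicate 4 (7 reads). Elsewhere it stood at 73.3% to 87.5%. At 3 to 15 reads per library these single cytosines cannot be compared between days. The heptamer GCGGGAA, searched on both strands, is the core of the site of E2F6, a further protein of that complex, and does not overlap CACGTG. It stood in Ddx4 and, within the 50 bases after the start, in Slc25a31, against 4.60% of all windows and 9.20% of those with at least 10 CpGs. The CpG within it was methylated in 65 of 65 reads in Ddx4 and in 59 of 63 (93.7%) in Slc25a31.

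The spacing of the repeat unit shown above recurred among the members. In 18 of the 661 (2.72%), on 13 chromosomes, at least 8 cytosines fell on CpGs of that window in 1 orientation or the other and made up at least 80% of the cytosines inside it. None of the 8204 unmethylated runs and none of the 786 other dense runs met the same rule. That window was picked because it matched 1 of them. Over these 18 the lowest, median and highest levels were 79.2%, 89.3% and 94.1% in day 0 replicate 2, and 78.3%, 85.7% and 93.7% in day 0 replicate 3. At day 4 they were 80.4%, 89.3% and 98.3% in replicate 1, and 79.7%, 87.3% and 96.0% in replicate 2. At day 7 they were 85.0%, 92.8% and 98.3% in replicate 1, and 75.5%, 88.4% and 96.3% in replicate 4. The days overlap, and no comparison between days called any of the 18, with a lowest adjusted p of 0.2694 (edgeR, day 7 against day 0). At an unadjusted p below 0.05 there were 0 for day 4 against day 0, 2 for day 7 against day 0 and 1 for the later pair of days. Over all autosomal regions tested the shares at that p were 6.59%, 12.3% and 10.8% in the same order. Whether reads that fit several copies of a repeat were kept is not given in the sources used here, so the level of 1 copy may include reads of others.

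Copies of one spacing were also seen without any sequence. Sharing 6 neighbouring gaps in a row with another run, on either strand, 86 members (13.0%) had a partner, against 18.2% of unmethylated and 11.8% of other dense runs. With 8 gaps in a row the shares were 3.03%, 1.05% and 4.33%, and 18 of the 20 members had a partner that was also a member. A group linked by such shared gaps held 104 runs on 21 chromosome names, with 22 members on 13 chromosomes and 0 unmethylated dense runs. In 51 of the 104 the gaps were 14, 64, 2, 2, 15 and 24 bp in a row. Of its 103 runs with enough reads, 95 stood at 70% or more in all libraries, counting runs outside the autosomes or with fewer than 10 cytosines. A smaller group of 8 runs held 6 members, and 1 of 17 runs held 5. Another group, of 994 runs, held 861 unmethylated runs and 7 members. In 39 of its runs, 0 of them members, 6 gaps in a row were 3 bp each. Shared spacing by itself thus occurred on both sides.

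Within a member the cytosines were methylated along its whole length in most cases. With the reads of the 6 libraries pooled (at least 30 per cytosine), the lowest cytosine of the median member stood at 76.8% and the highest at 96.2%. In 470 members (71.1%) every cytosine was at 70% or more, and in 34 (5.14%) at least 1 was below 50%. The first and last cytosines of the runs were lower than the inner ones by 1.22 to 2.49 points in the 6 libraries. Only 168 cytosines in 32 members had at least 10 reads in each library. The lowest mean among them belonged to position 56331441 on chromosome 14, at 54.2% and 47.4% (day 0), 54.5% and 33.3% (day 4), and 68.8% and 54.5% (day 7), inside a run at 77.3% to 92.9%.

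The methylation went on beyond the members. Listed cytosines 101 to 500 bp from a member had mean levels of 80.5% to 85.5% in the 6 libraries, and those at 501 to 1000 bp 74.4% to 78.0%. From 1001 to 2000 bp the means were 55.4% to 64.0%, and from 2001 to 5000 bp 50.9% to 57.3%. Beside unmethylated dense runs the means were 1.89% to 3.34%, 5.43% to 7.14%, 15.2% to 18.1% and 31.7% to 37.1% at the same distances. At each distance the lowest library beside members lay above the highest beside unmethylated runs. Flanking cytosines that belong to other runs of either class were kept, so the choice by level set part of this contrast. Another run of the same class lay within 1000 bp for 35.8% of unmethylated runs and 1.21% of members. Such a cytosine within 1000 bp was listed for 377 members (57.0%) and for 6985 unmethylated runs (85.1%).

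**Figure D4:**
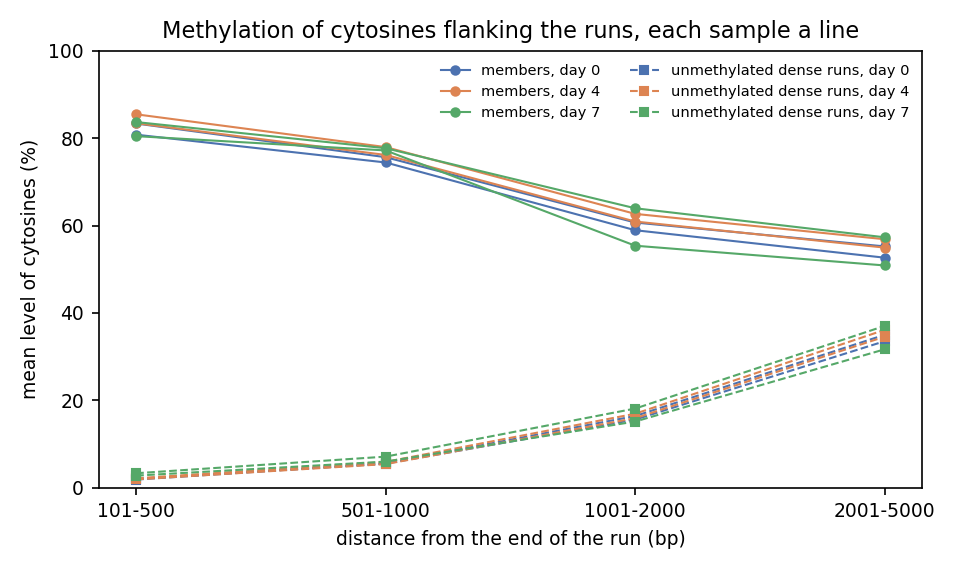
Mean methylation level (%) of listed cytosines at 4 distances (bp) from the ends of the members (circles, solid lines) and of unmethylated dense runs (squares, dashed lines), each line a sample and each colour a day. The lines of the members go from 80.5% to 85.5% down to 50.9% to 57.3%, and those of the unmethylated runs from 1.89% to 3.34% up to 31.7% to 37.1%.

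By the median, members lay further from unmethylated dense runs than those runs lay from each other. The median distance to the nearest unmethylated dense run was 80019 bp, against 18054 bp from one unmethylated run to the next. Of the unmethylated runs 35.8% had another within 1000 bp. Distances were not compared with those of sites placed at random. Only 2 members were within 1000 bp of one. The closest, on chromosome 7 from 29997651 to 29998059 (23 cytosines), stood at 87.7% and 80.6% before culture, 87.5% and 86.7% on day 4, and 85.7% and 92.5% on day 7. At 738 bp from it, the run from 29996634 to 29996913 (13 cytosines) stood at 0% to 2.13%. The second, on chromosome 8 from 73119789 to 73120158, stood at 82.8% to 91.6%, and 970 bp away a run of 39 cytosines stood at 0.253% to 2.05%. The median distance from a member to the next was 730508 bp, and 8 members were within 1000 bp of another.

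Members were less dense than unmethylated runs of the same class. Their median gap between neighbouring cytosines, taken as the mean of each run, was 21.3 bp (quartiles 16.4 and 26.9), against 13.0 bp in unmethylated dense runs and 23.9 bp in short methylated runs. The median member had 11 cytosines over 237 bp and the median unmethylated run 14 over 175 bp. Exactly 10 cytosines, the fewest allowed, were found in 228 members (34.5%), and 27 had 20 or more. Across the 661 members, the mean level was lower where the mean gap was larger (Spearman rho -0.293, Pearson r -0.276). With the number of cytosines rho was -0.009. Members share libraries and depth, so these are descriptions with no p. Chromosomes 15 and 7 had the highest share of members among their dense runs, at 9.35% and 9.27%, and chromosome 19 the lowest, at 3.44% (12 runs).

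The longest members by cytosine number were spread over the genome. The run with most cytosines, 39, on chromosome 8 from 91151119 to 91151380, stood at 84.5% and 88.4% (day 0), 92.5% and 90.8% (day 4), and 71.2% and 85.1% (day 7), on 194 to 656 reads. The low value is that of day 7 replicate 1, a deeper library than replicate 4. A run of 37 on chromosome 12 from 109154405 to 109155059 stood at 88.9% and 89.7%, 90.1% and 90.4%, and 92.7% and 99.2%. A run of 34 on chromosome 5 from 122278450 to 122278900 stood at 95.3% and 92.7%, 96.3% and 92.1%, and 91.1% and 91.4%, and was among the 5 highest by their lowest library of the members with at least 100 reads in each library. Among the 5 members with the smallest median gap, a run of 11 cytosines over 38 bp on chromosome 15 from 81902459 to 81902496 stood at 96.1% to 100% in the 6 libraries, the 100% on 15 reads.

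A pair of members on chromosome 2 stood apart by their depth. The run from 98506659 to 98507482 (36 cytosines) held 76121 and 57709 reads (day 0), 104050 and 94467 (day 4), and 138139 and 373989 (day 7). The last was 10.3% of all reads of day 7 replicate 4, and the others were 0.744% to 1.59% of theirs. Its levels were 80.04% and 75.8%, 82.0% and 78.4%, and 77.4% and 72.2%. The second, from 98502421 to 98502842 (13 cytosines), held 11407 to 72644 reads and stood at 70.7% to 79.0%. The third by reads per cytosine in the lowest library, on chromosome 4 from 61346738 to 61346891, held 141 to 465 reads. Summed over all reads, the members of day 7 replicate 4 stood at 73.4%, against 88.4% as the mean over members.

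At the median, members were read about as deeply as other runs. The ratio of median reads per cytosine in members to that in unmethylated dense runs was 0.958 over the 6 libraries and below 1 in 6 of 6, from 0.863 in day 7 replicate 4 to 0.997 in day 4 replicate 1. The exact sign-flip permutation p over samples was 0.0312, two-sided, the smallest that 6 samples can give. By the mean over runs, which includes the 2 deepest members, the ratio was 1.80 (same p). Against short methylated runs the ratio was 1.03 and above 1 in 5 of 6 (exact permutation p = 0.156), and 1.85 by the mean over runs.

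Day 4 against day 0 asks what the first days of culture did to these regions. The mean level over members was 2.28 points higher at day 4, and 481 of the 661 members had a higher mean. In 697 dense runs chosen on day 7 alone the mean was also 2.28 points higher, with 0 called. The exact permutation p over samples was 0.333 there, the smallest that 2 samples against 2 can give. Both day 4 libraries lay above both day 0 libraries in 217 members (32.8%) and below in 48 (7.26%). Over all 55146 autosomal regions tested these shares were 20.7% and 10.3%, and in the short methylated runs 26.6% and 8.94%. No member passed an adjusted p of 0.05 in edgeR's likelihood ratio test, and 28 of the 661 had an unadjusted p below 0.05, where 6.59% of autosomal regions did. The quasi-likelihood test and limma also called 0, with 15 and 6 at that unadjusted p, where 1855 and 2374 of the 55146 autosomal regions were. The likelihood ratio test called 0.00363% of all autosomal regions tested. The rule keeps every member between 70% and 100%, so no difference over 30 points was possible. The largest rise was 12.7 points (adjusted p = 0.6591, edgeR), in a run on chromosome 7 that is described with the last comparison. In the short methylated runs the mean was 2.19 points higher over the same days (exact permutation p = 0.333).

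The day 7 cultures were next set against marrow taken before culture. The mean over members was 2.15 points higher at day 7, with 458 members higher. As total methylated over total reads, where each read weighs the same, the difference was -5.26 points, and 2.10 points without the 2 deepest members. In 732 dense runs chosen on day 4 alone the mean was 1.67 points higher (exact permutation p = 0.667), and the same 2 members described below were the called ones. Both day 7 libraries lay above both day 0 libraries in 187 members (28.3%) and below in 58 (8.77%), against 29.4% and 7.02% of all autosomal regions. In the short methylated runs these shares were 29.2% and 8.59%. In edgeR 2 members of 661 were called, both higher, where 0.355% of autosomal regions were called. That adjustment ran over 56105 regions on all chromosomes, of which 470 were called. Of these regions 55146 were autosomal, with 196 of the calls, so most calls came from the few regions on other chromosomes. With autosomes fitted and adjusted alone, 35 of the 55146 autosomal regions and 0 members were called. In the fit of all chromosomes 46 members had an unadjusted p below 0.05, where 12.3% of autosomal regions were at that p. The comparison shares its day 0 libraries with the one before.

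The first of the 2 was the run matched to Gm13205, on chromosome 4 from 148326478 to 148326628 (mm9, 18 cytosines), whose window is shown above. It stood at 85.8% and 76.4% before culture, 97.0% and 88.9% on day 4, and 95.2% and 96.7% on day 7, on 90 to 330 reads. Both day 0 libraries were below the 4 others. The level rose from 81.1% ± 6.62 to 95.9% ± 1.02 (SD, n = 2 each), by 14.9 points (adjusted p = 0.04692, edgeR). Day 4 lay between, at 93.0% ± 5.76. Without any 1 of the day 0 or day 7 libraries the call was lost, with differences of 10.2 to 19.5 points. Over all autosomal regions fewer were called in these fits too.

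The second, on chromosome 7 from 53208872 to 53209078 (10 cytosines), was not matched to a gene start. It stood at 85.2% and 77.7% (day 0), 87.2% and 95.4% (day 4), and 96.9% and 97.5% (day 7), on 65 to 142 reads. It rose from 81.4% ± 5.34 to 97.2% ± 0.420 (SD, n = 2 each), by 15.7 points (adjusted p = 0.03811, edgeR). Again both day 0 libraries were the lowest, and day 0 replicate 3 the lower of them. Without any 1 of the 4 libraries compared the difference was still a rise, but the call was lost. The quasi-likelihood test, limma and the fit of autosomes alone each called 0 members.

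The largest rise was in neither of these. The run on chromosome 10 from 71771961 to 71772067 (14 cytosines) stood at 82.9% and 75% before culture, 91.1% and 77.0% on day 4, and 100% and 93.2% on day 7, a difference of 17.7 points (adjusted p = 0.106, edgeR). The value of 100% rests on 40 reads. The largest fall was on chromosome 17 from 92532681 to 92532834 (10 cytosines), at 92.3% and 90.7%, 80.7% and 81.3%, and 72.4% and 83.6%. Its difference was -13.5 points at day 7 and -10.5 points at day 4 (adjusted p = 0.2649 and 0.7287). Both later days lay below both day 0 libraries there.

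**Figure D5:**
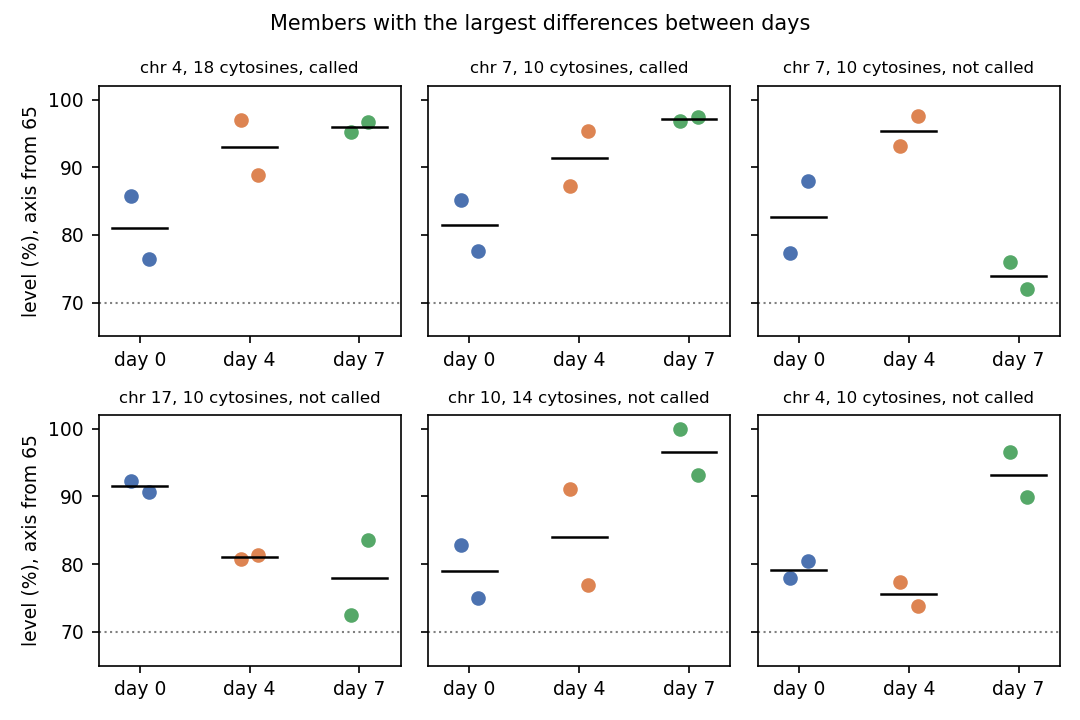
Methylation level (%) in each sample, from 65 upward, of the 2 members called between day 7 and day 0 and of the 4 others with the largest rise or fall of a comparison. Each point is a sample, the black line the mean of the day, the dotted line the 70% of the choice. In both called members the day 0 samples lie at 76.4% to 85.8% and the day 7 samples at 95.2% to 97.5%.

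The last comparison sets day 7 against day 4, the later of the cultured stages against the earlier. The mean over members was -0.126 points different, with 324 members higher at day 7, and as total methylated over total reads it was -6.68 points. In 727 dense runs chosen on day 0 alone it was -0.663 points (exact permutation p = 0.667), with 2 called, 1 in each direction. Both day 7 libraries lay above both day 4 libraries in 111 members (16.8%) and below in 115 (17.4%). Over all autosomal regions the shares were 24.0% and 10.3%. No member was called in edgeR (34 at an unadjusted p below 0.05), in its quasi-likelihood test (25) or in limma (12). Over autosomal regions 0.252% were called in edgeR and 10.8% were at that unadjusted p. In the quasi-likelihood test and limma 3583 and 5851 of the 55146 autosomal regions were at that p. The largest fall, on chromosome 7 from 20130954 to 20130990 (10 cytosines over 37 bp), was from 93.1% and 97.5% at day 4 to 76% and 72% at day 7, by 21.3 points (adjusted p = 0.07998, edgeR). At day 0 it stood at 77.3% and 88.0%. Its reads were 110 and 50, 130 and 40, and 50 and 50, that is 4 to 13 per cytosine, so few molecules lie behind each value. Its cytosines lie at the spacing of a simple repeat found before several genes, Smad5 and Kif2a among them. The largest rise was on chromosome 4 from 30857152 to 30857264 (10 cytosines), at 77.9% and 80.4%, 77.3% and 73.8%, and 96.6% and 89.9% (adjusted p = 0.2668).

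Single members also differed between libraries of the same day. A member's highest and lowest library lay 11.3 points apart at the median, from 2.95 to 26.8. The lowest library was a day 0 one in 310 members (46.9%), replicate 2 in 108 and replicate 3 in 202. Day 7 replicate 4, the shallowest, was the highest in 208 and the lowest in 152. Differences of group means of at least 10 points were seen in 14 members between days 0 and 4, in 47 between days 0 and 7, and in 23 between days 4 and 7. The share between days 0 and 7, 7.11%, was below the 17.7% of short methylated runs, which hold fewer cytosines and reads. The order of members by level was shared in part, with Spearman correlations between libraries of 0.224 to 0.601 across the 661.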

How the data were processed

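Per the labels' protocols, DNA was cut with MspI or TaqI, joined to methylated adapters, treated with bisulfite and amplified. Per the submitters' processing notes, Bismark and Bowtie2 were used on mm9. How duplicates and reads with several placements were treated is not given in the sources used here. In the deposited table stand, for 652716 cytosines and each sample, the authors' methylated fraction and the counts of methylated and unmethylated reads. The deposited fraction equalled methylated over all reads, up to rounding.

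Runs and levels were computed from the counts with Python 3.11.15 and pandas 2.3.3. For tests between days, edgeR 4.0.16 (R 4.3.3) fitted both kinds of read count in 1 negative binomial model of all 6 samples, each sample with its own term, followed by likelihood ratio tests. Adjustment (Benjamini-Hochberg) ran over 56105 runs on all chromosomes that had 3 or more cytosines, 10 or more reads per sample and reads of both kinds. Calls are members with adjusted p under 0.05, whatever the size of the difference. Mean levels and depth ratios used exact permutation tests over samples. All tests are two-sided. The edgeR test and the spacing match were tested on simulated data. The changes planted for edgeR were larger than any the rule of the members allows, so its power in members was not measured.

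Members and lists were chosen with earlier results of these data known. Named regions are those with most cytosines, the highest lowest level, the smallest gaps, the greatest depth, the lowest cytosine, the place nearest an unmethylated run or the threshold, shared spacing, or the largest differences, with a selection of each printed. The rule named no gene unless an annotation of the build was given. The match of spacing to RefSeq windows (32851 windows, GRCm38.p6), which names all genes it found for members, was added after the data were seen, as were the motif counts and the repeat. Coordinates were not converted. The alternatives are limma 3.58.1 (pseudocount 0.5), edgeR's quasi-likelihood test, other limits on reads, gaps, cytosines and levels, and each sample left out.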

Additional observations from a re-analysis of the deposited data

How the results depend on the processing

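Precision is limited by 2 samples per day and by the shallow day 7 replicate 4. No paired analysis was possible because the days share fewer than 2 replicate numbers. The number of members, 661, was 1635 with at least 8 cytosines and 112 with at least 15, 214 with gaps of at most 50 bp and 1378 with at most 200 bp, 417 at a level of at least 80%, 365 with 50 reads in each sample and 4 with 10 reads at each cytosine used. Leaving out 1 sample gave 662 to 709. The 2 members called for day 7 against day 0 became 0 in the quasi-likelihood test, in limma, with at least 20 points and with autosomes fitted alone. Of the 55146 autosomal regions 28, 0, 73 and 35 were called there. With 50 reads in each sample 5 of 365 members were called, and 423 of 9120 autosomal regions. Unadjusted p below 0.05 was reached by 25 members in the quasi-likelihood test and 18 in limma, and by 4154 and 6797 of the 55146 autosomal regions. Without any 1 of the day 0 or day 7 samples, fewer calls were made among members and also among all autosomal regions. The loss of calls was thus not particular to members. Without either day 4 sample the number of members called did not change. The lone sample that such a fit leaves in a group is assumed to vary like the other groups. For day 7 against day 4 the count of 0 became 1 with 50 reads in each sample, where 220 of 9120 autosomal regions were called. It became 2 among runs chosen on day 0 alone, an alternative added after seeing the data. For day 4 against day 0 the count was 0 in all 13 alternatives run. The mean level of members for day 7 against day 0, 2.15 points, became -5.26 points as total methylated over total reads and 2.10 points when that total left out the 2 deepest members, an alternative chosen after seeing the data. Leaving out 1 sample gave 1.46 to 2.84 points, and 1.45 to 3.10 points for day 4 against day 0. For day 7 against day 4, -0.126 points, the median over members gave 0.0048 points, total methylated over total reads -6.68 points (-0.0281 without the 2 deepest members), runs chosen on day 0 alone -0.663 points and leaving out 1 sample -0.951 to 0.699 points (0.699 without day 4 replicate 1 and 0.207 without day 7 replicate 4). The ratio of reads per cytosine to unmethylated runs, 0.958, was 1.80 by the mean over runs, and 0.951 to 0.979 with 1 sample left out, when the smallest exact permutation p that 5 samples can give is 0.0625. The ratio to short methylated runs, 1.03, was 1.85 by the mean over runs and 1.08 with no coverage minimum (exact permutation p = 0.0312 in both), and 1.02 to 1.05 with 1 sample left out. The cause of these shifts was not tested. Of alternatives added after seeing the data, 7 members matched a promoter window at 10 or more cytosines and 8 at 70% of the CpGs, against 9. The match of Fkbp6 met neither.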
